A study of Mus musculus with 5 samples.

Results

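The genes described here mark how mature a pancreatic beta cell is. Ucn3 and Trpm5 belong to the mature state, and Neurog3, Aldh1a3, Sox9, Dlk1, Npy and Rest to an immature, progenitor or dedifferentiated state. They were chosen by symbol: every non-control probe that the array tables assign to one of these 8 symbols was taken, which gave 10 probes among the 39429 on the array, for 8 of the 27176 genes named there. All measurements come from MIN6 cells, an insulin-secreting line from a mouse insulinoma that serves as a beta cell model, on 1-colour Agilent expression arrays with 1 array per sample. In the EXO-HP group (n = 3 arrays), cells were given exosomes that high-fat-fed mice's muscle had released ex vivo and that ultracentrifugation had collected. In the EXO-STD group (n = 2 arrays), the muscle donors were mice fed a standard diet. Untreated MIN6 cells are not part of the comparison, and the labels give no dose, time or mouse strain. The samples are labelled biological replicates, but separate cultures or muscle donors are not stated, so p-values measure only the spread between these samples, part of which may be technical.

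As background, beta cells arise from pancreatic progenitors that carry SOX9 and pass through a brief stage marked by NEUROG3, a basic helix-loop-helix factor that commits them to the endocrine fate. After birth they gain UCN3, a corticotropin-releasing factor family peptide that acts on delta cells in the islet, and keep REST, a repressor of neuronal genes, at low levels. In stressed or diabetic islets some beta cells lose mature features, and ALDH1A3, an enzyme that makes retinoic acid, is a widely used marker of that dedifferentiated state. NPY, a neuropeptide of immature beta cells, and DLK1, a membrane protein related to Notch ligands, are further markers of this kind, whereas TRPM5 is a calcium-activated cation channel that takes part in glucose-stimulated insulin secretion.

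Each probe is a 60-base oligonucleotide, and its mm9 position is the one listed in the scanner files. A few of the probes are shown: the probe of Npy, both probes of Rest and the dimmer probe of Dlk1. They are written 5′ to 3′ in lower case.
Npy, chromosome 6, 49773743 to 49777505: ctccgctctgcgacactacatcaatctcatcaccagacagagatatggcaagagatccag
Rest, brighter probe, chromosome 5, 77711857 to 77711916: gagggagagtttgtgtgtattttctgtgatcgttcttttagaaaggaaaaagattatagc
Rest, dimmer probe, chromosome 5, 77704280 to 77704339: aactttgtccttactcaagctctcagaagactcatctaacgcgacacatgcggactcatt
Dlk1, dimmer probe, chromosome 12, 110698502 to 110698561: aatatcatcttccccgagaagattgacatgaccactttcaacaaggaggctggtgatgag
The Npy probe covers 3763 bases of the genome with 60 bases of sequence, so its coordinates cross an intron. The paired probes of Rest lie 7517 bases apart on the genome. Those of Dlk1 are separated by 159 bases, with the brighter one at 110698721 to 110698781.

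The other probes are each listed at a single interval. That of Ucn3 lay at chromosome 13, 3940178 to 3940237, and that of Neurog3 at chromosome 10, 61597452 to 61597511. Aldh1a3 was read at chromosome 7, 73535785 to 73535844, by a probe that holds the polyadenylation signal AATAAA, searched in the probe's own orientation, as did 12.6% of all probes. Sox9 was read at chromosome 11, 112648809 to 112648868, in 10 repeat spots per array, and its probe had a G+C content of 30.0%, against a median of 41.7% over all probes. The probe of Trpm5 is listed at chromosome 7, 150257434 to 150257456, a span of 23 bases for a 60-base probe, so the listed interval does not cover the whole probe. The design assigns each probe to the gene's RefSeq transcript, and exon annotation was not used here.

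The plot of signal by array shows all 10 probes. Signals are given as normalised log2 values, in which 0 is the 75th percentile of an array's probes. Of the 10 probes, 7 were well above background on all 5 arrays and were tested, 1 for each gene except Sox9. The remaining 3 were the probe of Sox9 and the dimmer probes of Dlk1 and Rest. Both EXO-STD arrays and EXO-HP replicate 1 lay on slide 1 in scan 1, and EXO-HP replicates 2 and 3 on slide 2 in scan 2. Well above background were 74.0%, 91.6% and 81.6% of spots on EXO-HP replicates 1, 2 and 3, against 73.4% and 71.8% on EXO-STD replicates 1 and 2. Dim probes tended to have higher means in EXO-HP. When the tested probes were split by mean signal into 10 bins of equal size, from dim (bin 1) to bright (bin 10), the median log2 fold change was 0.84 in bin 1, 0.23 in bin 3, 0.14 in bin 4, -0.01 in bin 8 and -0.04 in bin 10. The tested probes of Dlk1 and Rest lay in bin 3, Ucn3 and Neurog3 in bin 4, Trpm5 and Aldh1a3 in bin 8, and Npy in bin 10. The part of this shift in the members' values was not tested. MIN6 identity was checked on 8 beta cell markers, Ins1, Ins2, Iapp, Pdx1, Nkx6-1, Mafa, Chga and Slc30a8, and all 8 were well above background on all 5 arrays.

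None of the 7 tested markers of maturity or dedifferentiation passed the test, and Sox9 could not be tested. Of the 7 tested probes, 5 had a higher and 2 a lower mean in EXO-HP cells, with a median log2 fold change of 0.10, against 0.07 over all 31945 tested probes, 62.8% of which were higher. At adjusted p 0.05, 0 of the 7 passed (limma, Benjamini-Hochberg over all tested probes), and 0% of all probes did (0 of 31945). At an unadjusted p under 0.05 there were again 0 of the 7, beside 1787 of all probes (5.59%), with 5.36% of all probes higher in EXO-HP and 0.238% lower. Non-overlapping groups were seen for 2 members and for 17.8% of all probes: Neurog3 was above, as were 15.1% of all probes, and Aldh1a3 below, as were 2.76%. With groups of this size, the smallest 2-sided p an exact permutation test allows is 0.2.

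**Figure D1:**
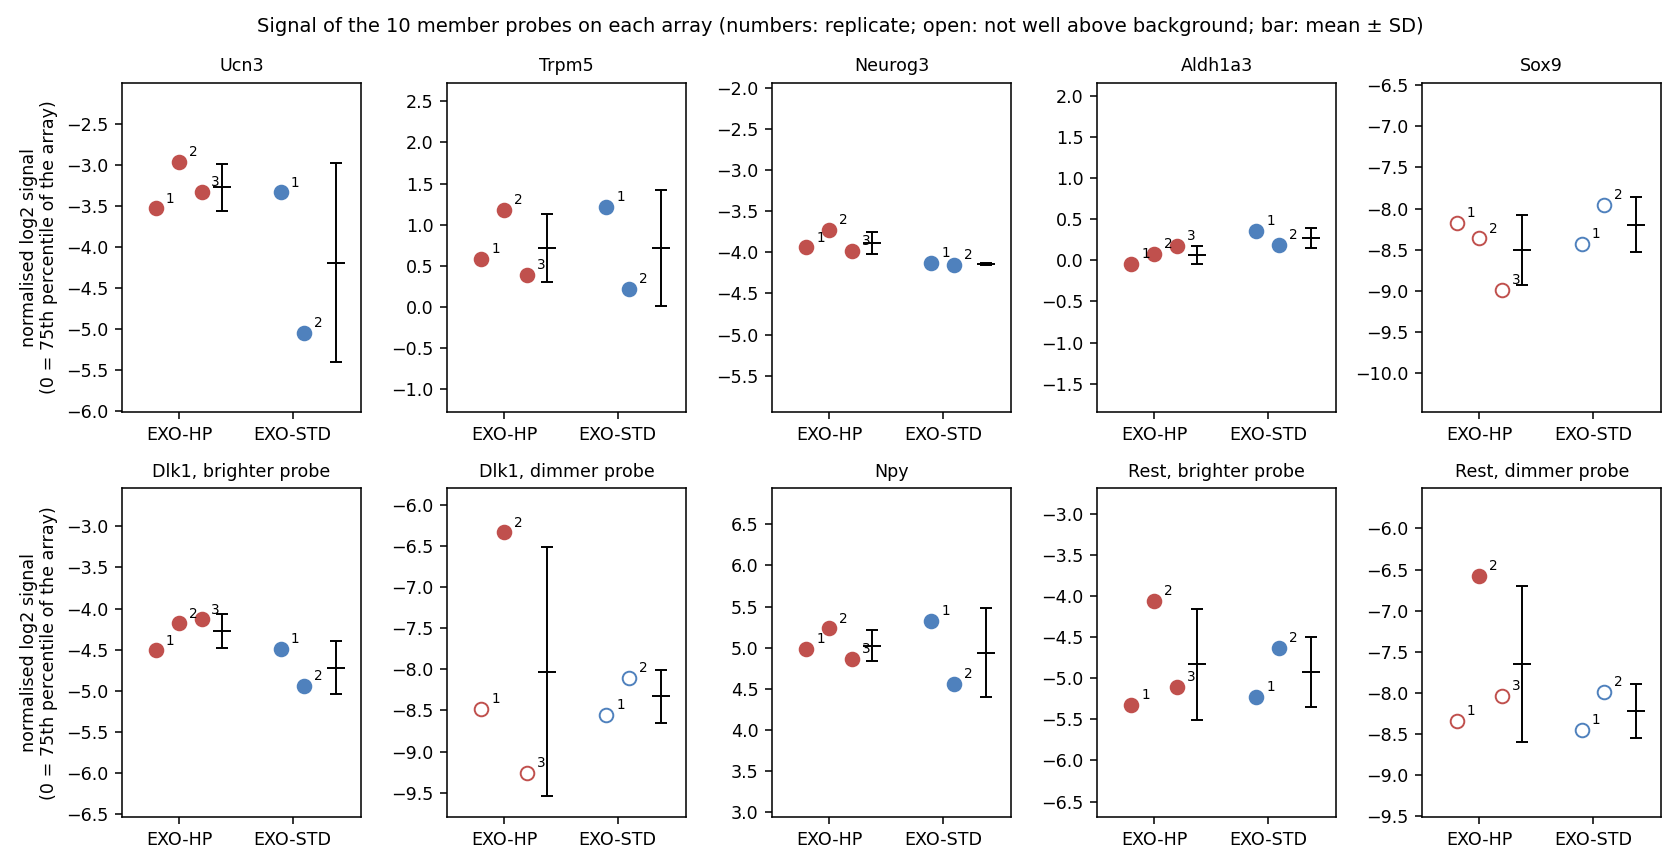
Normalised log2 signal of each of the 10 member probes (y axis, 0 = 75th percentile of the array, every panel spanning 4 log2 units) on the EXO-HP arrays (red, n = 3) and the EXO-STD arrays (blue, n = 2); numbers are replicates, open circles are not well above background, and bars show mean ± SD. Ucn3 is spread mainly by EXO-STD replicate 2 at -5.05, while all 3 EXO-HP values of Neurog3 lie just above both EXO-STD values.

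Ucn3 had the widest difference in means of the 7 tested markers and the widest spread within EXO-STD. Its normalised log2 signal was -3.53, -2.97 and -3.33 on EXO-HP replicates 1, 2 and 3, against -3.34 and -5.05 on EXO-STD replicates 1 and 2. The EXO-HP arrays were thus close to each other and to EXO-STD replicate 1, and only EXO-STD replicate 2 was low. The means were -3.28 ± 0.29 (SD, n = 3) in EXO-HP and -4.19 ± 1.21 (SD, n = 2) in EXO-STD, a log2 fold change of 0.92 ± 0.52 (SE; 95% interval -0.39 to 2.22, limma adjusted p = 0.975), or 1.89-fold. The 2 EXO-STD arrays differed 3.27-fold from each other, whereas the EXO-HP arrays spanned 1.48-fold. Leaving out EXO-STD replicate 2 gave a log2 fold change of 0.06, and leaving out EXO-STD replicate 1 gave 1.77. It was 0.53 with normexp background correction, and the deposited value table gave 0.54. Before scaling between arrays, the spot read 146, 291 and 206 intensity units on EXO-HP replicates 1, 2 and 3, against 190 and 69.3 on EXO-STD replicates 1 and 2. The scanner software's own error for these readings lay between 10.1% and 15.1%. It is given per spot and does not measure the spread between arrays, and the cause of the gap between the EXO-STD arrays was not tested.

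Trpm5, the other maturity marker, had nearly equal means. It read 0.58, 1.18 and 0.39 on EXO-HP replicates 1, 2 and 3, against 1.22 and 0.22 on EXO-STD replicates 1 and 2. EXO-HP replicate 2 and EXO-STD replicate 1 were high, and the other arrays low, so that each group held high and low arrays. The means were 0.72 ± 0.41 (SD, n = 3) in EXO-HP and 0.72 ± 0.71 (SD, n = 2) in EXO-STD, with a log2 fold change of -0.00 ± 0.40 (SE; 95% interval -0.99 to 0.99, limma adjusted p = 1.00). The interval leaves room for a difference of close to 2-fold in either direction. The value was 0.50 when EXO-STD replicate 1 was left out and -0.50 when EXO-STD replicate 2 was. Its sign also varied with the EXO-HP array left out, at 0.06, -0.23 and 0.16 without EXO-HP replicates 1, 2 and 3.

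Neurog3, the endocrine progenitor factor, varied little. Its normalised log2 signal was -3.94, -3.73 and -3.98 on EXO-HP replicates 1, 2 and 3, against -4.13 and -4.15 on EXO-STD replicates 1 and 2. All 3 EXO-HP arrays lay above both EXO-STD arrays, and the 5 arrays spanned 1.34-fold. The difference was 0.26 ± 0.20 (SE; 95% interval -0.23 to 0.75, limma adjusted p = 1.00), from means of -3.88 ± 0.14 (SD, n = 3) in EXO-HP and -4.14 ± 0.02 (SD, n = 2) in EXO-STD. The groups overlapped with normexp, with quantile normalisation, with median scaling and in the deposited value table, where the log2 fold changes were 0.11, 0.01, 0.08 and -0.04. At 5.68 to 6.64 times the local background in EXO-HP and 5.70 to 6.29 times in EXO-STD, the spot was dim on every array.

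Aldh1a3, the retinoic acid enzyme used as a marker of dedifferentiation, had a lower mean in EXO-HP. Its values were -0.04, 0.08 and 0.17 on EXO-HP replicates 1, 2 and 3, against 0.36 and 0.18 on EXO-STD replicates 1 and 2. All EXO-HP arrays lay below both EXO-STD arrays, though EXO-HP replicate 3 and EXO-STD replicate 2 were nearly equal. The log2 fold change was -0.20 ± 0.20 (SE; 95% interval -0.69 to 0.29, limma adjusted p = 1.00), from means of 0.07 ± 0.11 (SD, n = 3) and 0.27 ± 0.12 (SD, n = 2). A mean more than 1.22-fold higher in EXO-HP lies outside that interval. The value ran between -0.38 and -0.15 under other normalisations, blocks and the deposited value table, and between -0.29 and -0.12 as single arrays were left out. With normexp and in the deposited value table the groups overlapped.

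Sox9, the progenitor and duct factor, was not detected. None of its repeat spots was well above background on any array, with mean pixel signals 1.69 to 1.87 times the local background in EXO-HP and 1.65 to 1.85 times in EXO-STD. Its normalised log2 signal was -8.18, -8.36 and -8.99 on EXO-HP replicates 1, 2 and 3, against -8.43 and -7.96 on EXO-STD replicates 1 and 2. These readings overlapped, the scanner software's own error lay between 67.1% and 99.6% of the signal, and a fold change is therefore not given. Of 7 duct markers, 5 were well above background on all 5 arrays, among them Krt7 (a keratin), Spp1 (a secreted phosphoprotein), Onecut2 and Muc1. Krt7 stood at -0.06 ± 0.22 (log2 fold change ± SE) and Spp1 at -0.10 ± 0.19. Krt19 stood at 0.80 ± 0.83, at -0.24 with slide as a fixed block and between -0.10 and 1.70 as single arrays were left out. The summed signal of the 7 was 25.7 to 27.3 times an array's 75th percentile in EXO-HP and 25.2 to 27.0 times in EXO-STD.

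Dlk1 was read by a pair of probes, of which only the brighter was well above background on all 5 arrays. It gave -4.51, -4.18 and -4.13 on EXO-HP replicates 1, 2 and 3, against -4.49 and -4.95 on EXO-STD replicates 1 and 2. EXO-HP replicates 2 and 3 were above both EXO-STD arrays, and EXO-HP replicate 1 lay just below EXO-STD replicate 1. Its log2 fold change was 0.45 ± 0.25 (SE; 95% interval -0.17 to 1.06, limma adjusted p = 0.958), with means of -4.27 ± 0.21 (SD, n = 3) in EXO-HP and -4.72 ± 0.32 (SD, n = 2) in EXO-STD. The difference was 0.20 with normexp, 0.14 with quantile normalisation and 0.07 in the deposited value table. With slide as a fixed block, which compares EXO-HP replicate 1 with the EXO-STD arrays on its own slide, it was 0.21. The dimmer probe, whose sequence is printed above, was well above background on 1 of 3 EXO-HP arrays (replicate 2, 28.1 intensity units) and on 0 of 2 EXO-STD arrays, so it gives no fold.

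Npy, the neuropeptide of immature beta cells, gave bright spots on every array, 1871 to 2889 times the local background in EXO-HP and 1742 to 2137 times in EXO-STD. The normalised log2 signal was 4.98, 5.23 and 4.86 on EXO-HP replicates 1, 2 and 3, against 5.32 and 4.55 on EXO-STD replicates 1 and 2. The EXO-STD arrays enclosed all 3 EXO-HP arrays. Means were 5.03 ± 0.19 (SD, n = 3) in EXO-HP and 4.94 ± 0.54 (SD, n = 2) in EXO-STD, a log2 fold change of 0.09 ± 0.29 (SE; 95% interval -0.65 to 0.82, limma adjusted p = 1.00). As for Trpm5, EXO-STD replicate 1 and EXO-HP replicate 2 were the highest arrays and EXO-STD replicate 2 the lowest. Its log2 fold change was 0.47 without EXO-STD replicate 1, -0.29 without EXO-STD replicate 2 and -0.09 with median scaling.

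Rest, the repressor of neuronal genes, differed most between arrays of the EXO-HP group. The brighter probe read -5.32, -4.06 and -5.11 on EXO-HP replicates 1, 2 and 3, against -5.23 and -4.63 on EXO-STD replicates 1 and 2. EXO-HP replicate 2 was the highest and EXO-HP replicate 1 the lowest of all 5 arrays, a 2.39-fold span within one group. The log2 fold change was 0.10 ± 0.44 (SE, limma adjusted p = 1.00), with a 95% interval in fold terms of 0.499 to 2.29. The means were -4.83 ± 0.67 (SD, n = 3) in EXO-HP and -4.93 ± 0.42 (SD, n = 2) in EXO-STD. With slide as a fixed block it was -0.39, and without EXO-HP replicate 2 it was -0.29. The dimmer probe, the upstream one of the pair, was well above background on 1 of 3 EXO-HP arrays (again replicate 2, 23.9 intensity units) and on 0 of 2 EXO-STD arrays.

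**Figure D2:**
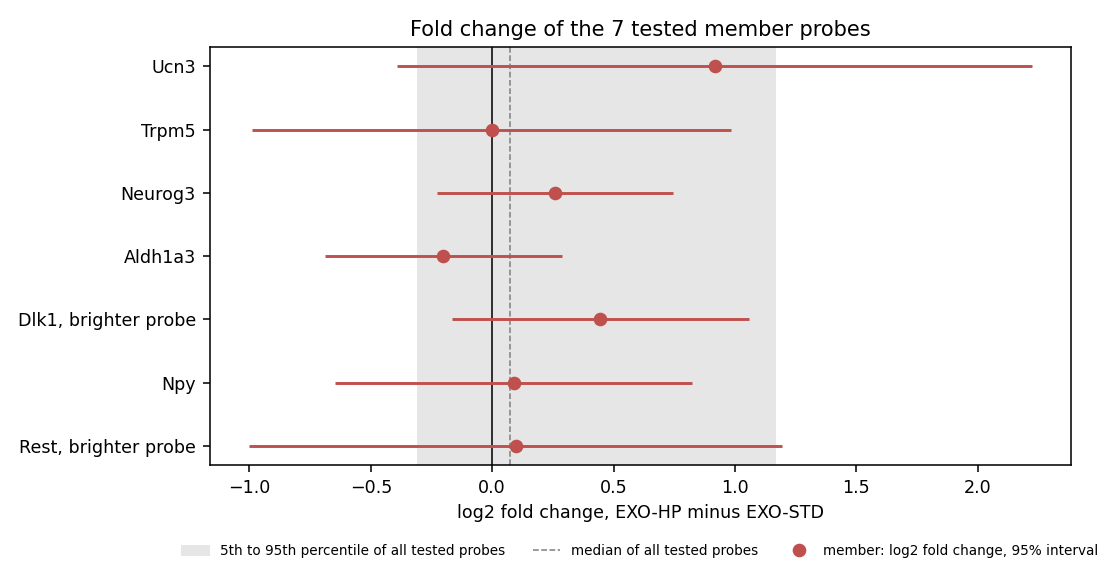
Log2 fold change (x axis, EXO-HP minus EXO-STD) of the 7 tested member probes, with limma's 95% intervals as lines; the grey band runs from the 5th to the 95th percentile of all 31945 tested probes and the dashed line is their median. Every interval includes 0, and every point lies inside the band, with Ucn3 at 0.92 and Dlk1 at 0.45 farthest to the right.

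Arrays of one group also differed from each other. Relative to the EXO-STD mean, 4, 6 and 3 of the 7 tested markers were higher on EXO-HP replicates 1, 2 and 3, against 56.3%, 65.7% and 57.6% of all tested probes on the same arrays. The residual SD within groups was 0.74 for Ucn3, 0.60 for Rest and 0.53 for Trpm5, against a median of 0.30 over all tested probes, and 0.11 for both Neurog3 and Aldh1a3. Ucn3 varied within groups more than 89.6% of tested probes, while Neurog3 varied less than most, with 8.24% of probes below it.

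**Figure D3:**
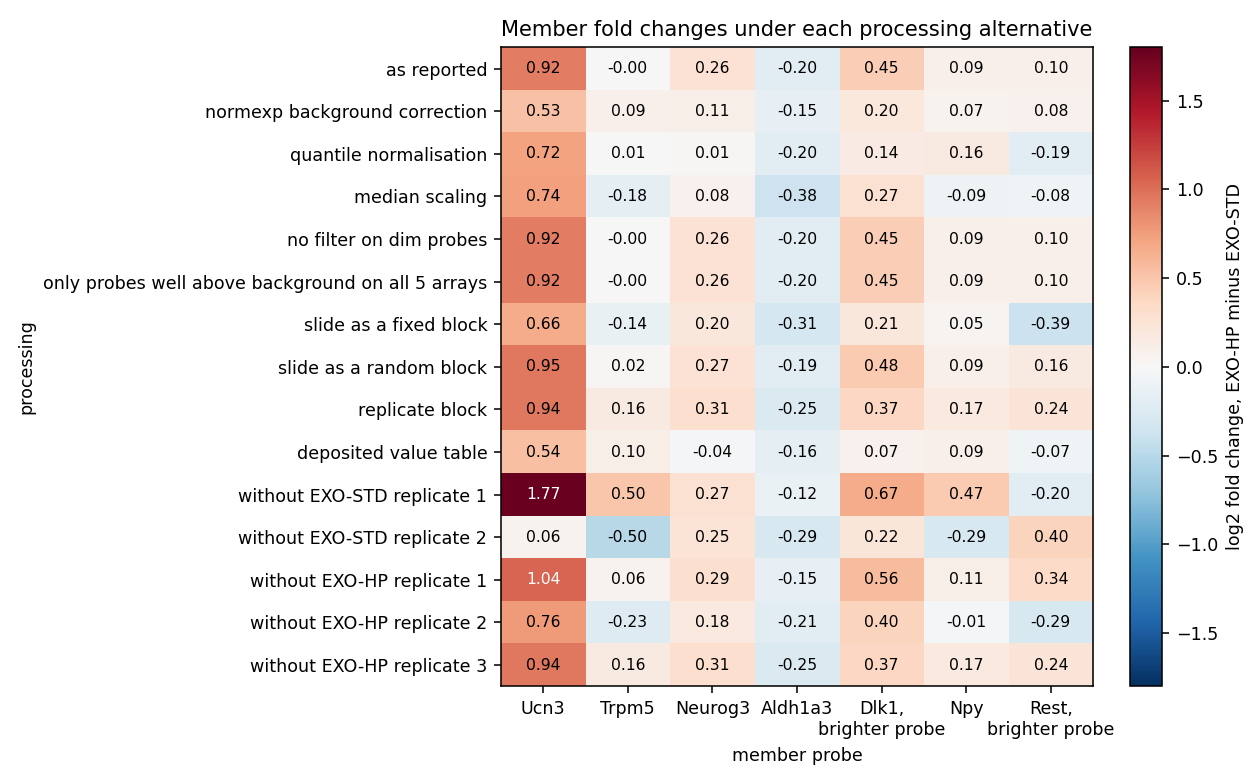
Log2 fold change (colour and printed value, EXO-HP minus EXO-STD) of the 7 tested member probes (columns) as reported and under 14 alternatives (rows). Ucn3, Aldh1a3 and Dlk1 keep 1 sign throughout, while Trpm5, Npy and Rest change sign with the array left out; Ucn3 runs between 0.06 and 1.77.

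For each marker the 2 genes whose deviations over the 5 arrays came closest to its own were found among 18851 genes well above background on every array, by root mean square (RMS) difference in log2 units. Trpm5 was closest to the ribosomal protein gene Rps14 (RMS 0.02) and to Gm16470 (0.03), and Npy to Fibp (0.01) and Det1 (0.02). Ucn3 was closest to BC029722 (0.09) and Ifna1 (0.14), and Rest to Gm7221 (0.06) and Nr3c2, the mineralocorticoid receptor (0.07). Neurog3 came nearest to Prss34 (0.01) and Snora74a (0.02), Aldh1a3 to Pus1 (0.02) and Lypd5 (0.02), and Dlk1 to Tmem200c (0.05) and Susd2 (0.05). With 5 arrays and so many genes, close matches of this kind describe these arrays only.

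Other genes of beta cell maturity, identity and function did not pass either. As a reference for the lists below, 62.1% of all tested genes had a higher mean in EXO-HP. Of 21 listed maturity genes 21 were tested, 12 with a higher and 9 with a lower mean in EXO-HP, a median log2 fold change of 0.10 beside 0.07 over 22237 tested genes, and 0 past adjusted p 0.05 or past an unadjusted p under 0.05 (limma). Pcsk1, a prohormone convertase, stood at 0.66 ± 0.32 (log2 fold change ± SE), and was 0.18 without EXO-STD replicate 2. Gjd2, the connexin that couples beta cells, stood at -0.41 ± 0.22, with 0.53, 0.27 and 0.15 on EXO-HP replicates 1, 2 and 3, against 0.64 and 0.81 on EXO-STD replicates 1 and 2. All 3 EXO-HP arrays of Gjd2 lay below both EXO-STD arrays, and its value was negative in all alternatives run, between -0.58 and -0.19. Gjd2 was the 1 listed gene wholly below, while 5 lay wholly above, among them Pcsk1, Ins1 and Ins2. Of all probes, 2.76% lay wholly below and 15.1% wholly above. The insulin genes Ins1 and Ins2 were at 0.14 ± 0.18 and 0.32 ± 0.18, and Ins1 was -0.03 with median scaling.

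Of 22 other measured genes of the immature or dedifferentiated state, 15 were tested, 11 higher and 4 lower (median 0.11), beside 62.1% of all tested genes higher. At an unadjusted p under 0.05 (limma) there was 1, beside 5.59% of all probes, and 0 passed the adjusted threshold. That 1 gene was Ldha, a lactate dehydrogenase kept low in mature beta cells, at -1.88 ± 0.61 (limma adjusted p = 0.884), followed by the lactate transporter Slc16a1 at 1.27 ± 0.55 and the fetal islet hormone Gast at 0.60 ± 0.40. Slc16a1 was 2.05 with slide as a fixed block and lay between 0.63 and 1.92 as single arrays were left out. The 3 probes of Ldha lay between -2.12 and -1.40. Ldha ranged from -2.80 to -0.95 as single arrays were left out, and Gast was -0.14 with slide as a fixed block. Cck, a peptide hormone, stood at 0.10 ± 0.19, and Cd81, a surface tetraspanin, at 0.00 ± 0.46.

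Of 21 genes that REST is known to repress, all tested, 12 were higher and 9 lower with a median of 0.01, and 0 passed either threshold. The 3 with the smallest p were Gjd2, given above, Celsr3, an adhesion receptor, at 0.31 ± 0.21, and Syt4, a synaptotagmin, at -0.44 ± 0.35. The granule proteins Chga and Scg2 stood at 0.00 ± 0.22 and 0.09 ± 0.20. Of 13 REST corepressors and partners, 6 were higher and 7 lower (median -0.04, range -0.12 to 0.15), among them the histone methyltransferase Ehmt2 at 0.15 ± 0.21, the demethylase Kdm1a at -0.12 ± 0.22, Rcor3 at -0.12 ± 0.22 and the deacetylase Hdac1 at -0.05 ± 0.22.

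Of 13 genes listed as Neurog3 targets, endocrine progenitor factors or relatives of Neurog3, 12 were tested, 8 higher and 4 lower (median 0.14), and 0 passed. Insm1 and Rfx6, which act in endocrine differentiation, stood at -0.04 ± 0.19 and 0.14 ± 0.25, Myt1 at -0.38 ± 0.27 and Fev at 0.29 ± 0.27. Neurog2, a relative of Neurog3, stood at 0.69 ± 0.29. Neurog2 was 0.30 with normexp. Among 23 Notch pathway genes, 14 were higher and 9 lower (median 0.07), beside 62.1% of all tested genes higher. Beside 5.59% of all probes at an unadjusted p under 0.05 (limma), the list had 1 gene. This was Dlk2, the closest relative of Dlk1, at 0.70 ± 0.27 (limma adjusted p = 0.890), whose 2 probes gave 0.70 and -0.07. Dll3 stood at 0.35 ± 0.21 with a second probe at -0.13, Rfng at 0.19 ± 0.21 and Dner at -0.04 ± 0.19. Hey2, a Notch-regulated repressor, stood at -0.91 ± 0.70, at -0.16 with normexp and at -2.25 with slide as a fixed block.

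Around Aldh1a3, 16 of 18 genes of retinoic acid synthesis and signalling were tested, 9 higher and 7 lower (median 0.18, and -0.01 with quantile normalisation), and 0 passed. Aldh1a2, which catalyses the same step as Aldh1a3, stood at 0.39 ± 0.22, the retinol-binding protein receptor Stra6 at 0.49 ± 0.23, and the receptors Rxrb and Rxrg at 0.26 ± 0.25 and 0.37 ± 0.25. Aldh1a2 and Stra6 had EXO-HP arrays that all lay above both EXO-STD arrays, 2 of the 16 tested genes, beside 15.1% of all probes. With normexp they were at 0.17 and 0.22. Cyp26a1, which degrades retinoic acid, was not well above background on any EXO-STD array. Its measured means were -5.74 in EXO-HP and -6.51 in EXO-STD (limma adjusted p = 0.956), and the EXO-HP mean was 1.39-fold above a floor set for EXO-STD. Such a bound sets the EXO-HP mean against the lowest signal that would have counted as well above background in EXO-STD, or the probe's own signal where that was higher, and holds for this processing only. Cyp26a1 entered the test only through its EXO-HP arrays. Its log2 fold change was 0.15 with normexp, 0.12 with quantile normalisation and as low as 0.20 when a single array was left out, all under that fold.

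Of 19 measured relatives and receptors of Ucn3 and Npy, 16 symbols were tested, 14 with a higher and 2 with a lower mean in EXO-HP. Higher were 62.1% of all tested genes, and 89.6%, 76.1% and 71.2% of the probes in bins 1, 3 and 4. The bins of the listed genes were not determined, and bin 1 has the most extreme shares. In this list, Ucn2, Npy1r, Npy2r and Npy5r were well above background on 0 of 2 EXO-STD arrays and entered the test only through EXO-HP, which favours a higher mean there. The list median was 0.43 with them, and 0.18 over probes well above background on all 5 arrays. It was 0.14 with normexp and 0.12 in the deposited value table. At an unadjusted p under 0.05 (limma) were 5.59% of all probes, 21.97% of those in bin 1 and 9.39% of those in bin 3. In the list there were 3, Ucn2, Npy1r and Npy4r, and 0 passed the adjusted threshold. Npy4r, a receptor for pancreatic polypeptide, was the one of these 3 detected on all 5 arrays, with -4.83, -3.74 and -3.48 on EXO-HP replicates 1, 2 and 3, against -5.84 and -5.19 on EXO-STD replicates 1 and 2. In the list, 6 symbols had EXO-HP arrays all above both EXO-STD arrays and 0 had them all below, beside 15.1% and 2.76% of all probes. Npy4r was 1 of the 6, with a log2 fold change of 1.50 ± 0.46 (limma adjusted p = 0.884) that was 0.73 with normexp and 0.69 with slide as a fixed block. A probe still listed under Ppyr1, an earlier symbol of the same gene, stood at 0.23, so this receptor counts for 2 of the 16. Ucn2, a sister peptide of UCN3, and Npy1r, an NPY receptor, were not well above background in EXO-STD and were each detected on 2 of 3 EXO-HP arrays. Their EXO-HP means were 1.01-fold and 1.33-fold above the EXO-STD floor described for Cyp26a1. With normexp their log2 fold changes were 0.30 and 0.29. The receptors Crhr1 and Sstr3 stood at 0.12 ± 0.20 and 0.12 ± 0.19.

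Among 14 tested TRPM channels and taste-type signalling genes, 8 were higher and 6 lower (median 0.20, but 0.01 with quantile normalisation and 0.08 over probes well above background on all 5 arrays). Phospholipase Plcb2, which acts upstream of TRPM5 in taste cells, stood at 0.55 ± 0.20 with EXO-HP arrays all above both EXO-STD arrays, and its 2 probes gave 0.55 and 0.44 (limma adjusted p = 0.890). Of the 14 genes, 3 lay wholly above and 0 wholly below, beside 15.1% and 2.76% of all probes. The G protein subunit Gnb3 stood at 0.53 ± 0.21 and the calcium release channel Itpr3 at 0.24 ± 0.25, while Trpm7 was at -0.11 ± 0.26. Gnat3 was not well above background in EXO-STD and entered the test only through EXO-HP, with a mean there 1.02-fold above the EXO-STD floor described for Cyp26a1. It was 1 of 3 genes at an unadjusted p under 0.05, with Plcb2 and Gnb3, beside 5.59% of all probes, and 0 passed the adjusted threshold.

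Of 18 SOX family genes measured beside Sox9, 10 were tested, 9 higher and 1 lower (median 0.34, and 0.20 with normexp). Of all tested genes 62.1% were higher, and of the probes in dim bins 1 and 4, 89.6% and 71.2%. Sox1 stood at 0.79 ± 0.28 (second probe 1.63), Sox12 at 0.66 ± 0.27 and Sox21 at 0.34 ± 0.20 (second probe 1.86). Sox12 was 0.22 with normexp and 0.17 with quantile normalisation. Sox4 and Sox11, factors also active in endocrine progenitors, stood at -0.08 ± 0.31 and 0.06 ± 0.22. At an unadjusted p under 0.05 (limma) there was 1 SOX gene, Sox1, beside 5.59% of all probes, and 0 passed the adjusted threshold. Of 8 measured genes in or beside the imprinted Dlk1-Dio3 locus, listed by position, 6 were tested, 4 higher and 2 lower (median 0.31, and 0.01 with quantile normalisation). Dio3, a deiodinase at the far end of that locus, well above background on 1 of 2 EXO-STD arrays, stood at 0.68 ± 0.21 (limma adjusted p = 0.884), but at 0.01 with quantile normalisation. The noncoding Mirg stood at 1.36 ± 0.78 and at 0.13 with slide as a fixed block. Begain, Ppp2r5c and Wars were at 0.52 ± 0.30, -0.20 ± 0.18 and 0.11 ± 0.21, and quantile normalisation put Begain at 0.01.

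With median scaling, which put the median of all probes at -0.10, the list medians were -0.08 for maturity genes, -0.07 for immature genes, -0.17 for REST targets, -0.21 for REST corepressors, -0.04 for Neurog3 targets and -0.10 for Notch genes. Median scaling shifts every probe by the same amount, so these medians moved together with that of all probes.

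Transcripts of other cell types were also measured, since the exosomes came from muscle. Of 14 skeletal muscle markers, 8 were well above background on all 5 arrays and 12 were tested. All 12 had higher means in EXO-HP (median log2 fold change 0.52), as did 62.1% of all tested genes. In bins 1 and 3, 89.6% and 76.1% of the probes were higher, and the bins of the muscle markers were not determined. At an unadjusted p under 0.05 (limma) were 5.59% of all probes, 21.97% of those in bin 1 and 9.39% of those in bin 3. Among the muscle markers there were 2, and 0 passed the adjusted threshold. These 2 were the calcium pump Atp2a1, at 0.51 ± 0.20, and the myosin light chain Mylpf. Mylpf was detected on 0 of 2 EXO-STD arrays and entered the test only through EXO-HP. Its EXO-HP mean was 1.69-fold above the EXO-STD floor described for Cyp26a1, and its log2 fold change was 0.25 with normexp. The summed muscle signal was 1.36 to 2.54 times an array's 75th percentile in EXO-HP and 1.12 to 1.46 times in EXO-STD. All 8 beta cell markers had higher means in EXO-HP (median 0.19), with 0 at an unadjusted p under 0.05 (limma). For 4 of them all EXO-HP arrays lay above both EXO-STD arrays, as for 15.1% of all probes. These markers were brighter than Trpm5, which lay in bin 8, and 47.9% of probes in bin 8 and 40.3% in bin 10 were higher in EXO-HP. Tested fibroblast markers (5) had a median of 0.38, macrophage markers (4) of 0.25, acinar markers (5) of 0.19, alpha cell markers (4) of -0.04, delta cell markers (3) of 0.15 and pancreatic polypeptide cell markers (2) of 0.18. Many probes of the other cell types are dim, and the part of these transcripts in the members' values was not tested.

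**Figure D4:**
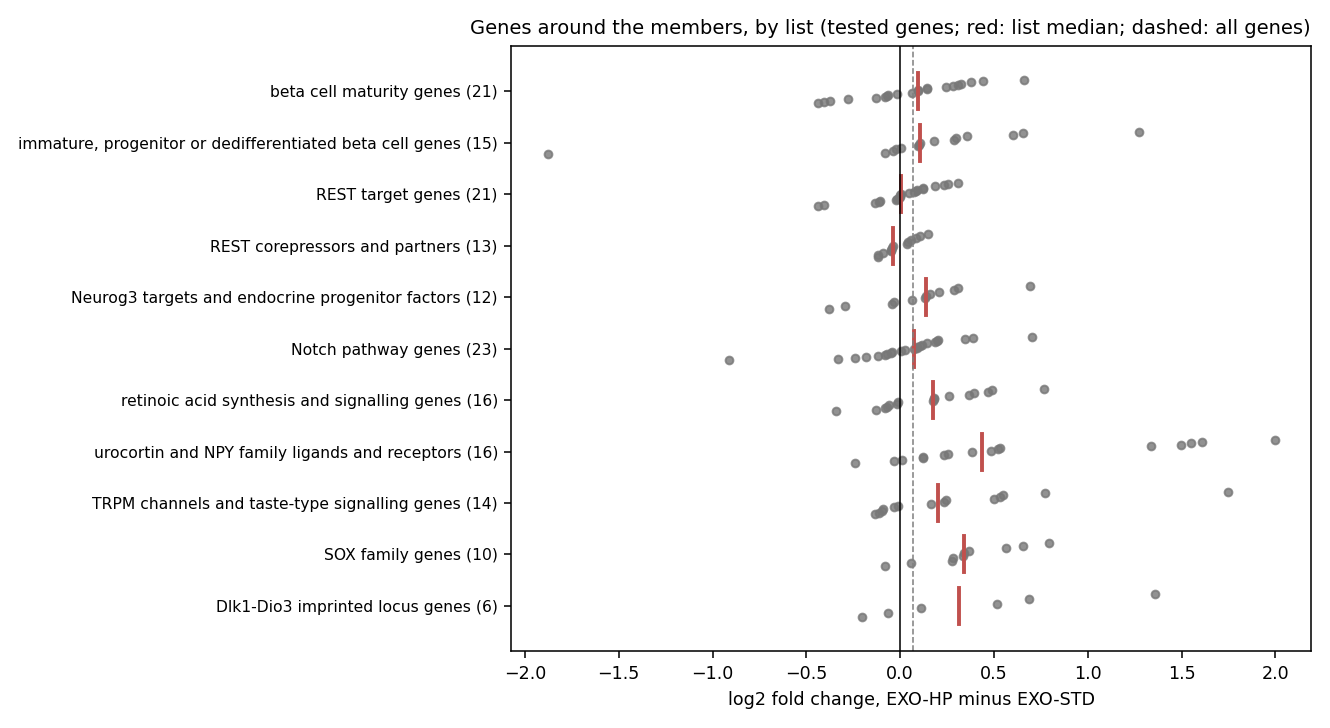
Log2 fold change (x axis, EXO-HP minus EXO-STD) of each tested gene (grey points) in 11 lists of genes related to the markers (y axis, number tested in brackets), with list medians in red and the median of all 22237 tested genes dashed. Lists of detected beta cell genes, such as the REST targets with a median of 0.01, sit close to the dashed line. Points far to the right include genes not well above background in EXO-STD, such as Ucn2, Npy1r and Gnat3, whose position is not a measured fold.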

How the data were processed

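The scanner files hold spot intensity values that the authors extracted with Agilent Feature Extraction, version 10.7.3.1 per the file headers, whereas the submitters' processing notes name version 9.1 and limma. Spatial and multiplicative detrending of the processed signal were switched on, per the file headers. A deposited value table holds log2 values with equal distributions in its 5 columns and no stated method, all matched to samples, leaving 0 unmatched.

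After removal of control and outlier spots, processed signals were put on a log2 scale, averaged over the spots of each probe and centred on the 75th percentile of their array. Probes lacking a usable spot on some array (110) or well above background on fewer than 2 arrays of each group (7374) were not tested. No spot was saturated. EXO-HP was compared with EXO-STD with lmFit and eBayes (limma 3.58.1, R 4.3.3, no covariates, 3 residual and 2.59 prior degrees of freedom), adjusted by Benjamini-Hochberg over 31945 probes at 0.05. On simulated data the fit returned the shifts that had been added. Those data held no slide effect and no dim-probe shift, so they do not speak to either. A gene is represented by its probe with the highest mean signal, and symbols were updated where a probe's RefSeq accession was matched (GRCm38.p6). Named are all members, the 3 genes of smallest p and the 2 of highest signal in each list, and the 2 nearest genes per member; Ins1, Muc1, Npy2r, Npy5r and Ppyr1 were added after their values were seen. The members and lists were chosen with earlier results of these data known. The number of arrays limits the precision.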

Additional observations from a re-analysis of the deposited data

How the results depend on the processing

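Under 14 alternatives, 80 of 98 member values kept their direction, including all 14 each for Ucn3 (0.06 to 1.77), Aldh1a3 (-0.38 to -0.12) and Dlk1 (0.07 to 0.67). Of the 14, 2 only change which probes are tested and cannot move a member's value, and the replicate block gives the same value as leaving out EXO-HP replicate 3. The 18 others turned sign, and the cause was not tested. Trpm5, at -0.00 as reported, was 0.092 with normexp, 0.0071 with quantile normalisation, 0.016 with slide as a random block, 0.16 with the replicate block, 0.10 in the deposited value table, and between -0.50 and 0.50 as single arrays were left out. Neurog3 was -0.038 in the deposited value table. Npy was -0.087 with median scaling and between -0.29 and 0.47 as single arrays were left out. Rest was -0.19 with quantile normalisation, -0.080 with median scaling, -0.39 with slide as a fixed block, -0.074 in the deposited value table, and between -0.29 and 0.40 as single arrays were left out. The median of all probes was 0.07 as reported and -0.10 with median scaling, and normexp, quantile normalisation and the deposited table put it at 0.04, -0.02 and -0.02. The share of higher probes among those at an unadjusted p under 0.05 was 95.7% as reported, 74.6% with quantile normalisation, 83.9% with median scaling, 73.2% in the deposited table and 59.1% with slide as a fixed block. With limma, 0 member probes passed adjusted p 0.05 under any alternative, with 1 value at an unadjusted p under 0.05, that of Ucn3 without EXO-STD replicate 1. Over all probes the count past the threshold was 0 to 3 as single arrays were left out. Those 3, in Btbd10, Polr1e and LOC100048394, appeared without EXO-STD replicate 1 and were named after their values were seen.

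Replicate numbers are shared by the groups for replicates 1 and 2, but the labels do not say that a number marks a shared culture or day. Deviations of same-numbered arrays from their group means correlated at 0.02 for replicates 1 and at -0.06 for replicates 2 across probes. The deviations of the 2 EXO-STD arrays are mirror images of each other, so these correlations cannot decide whether arrays are paired. The replicate block, in which EXO-HP replicate 3 has no EXO-STD partner, left the count at 0 of 31945 probes. Dim signal limits Sox9 and the dimmer probes of Dlk1 and Rest, for which no fold could be given.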
